A study of Anopheles gambiae with 15 samples.

Results

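The probe sets described here are those of an Anopheles gambiae oligonucleotide array whose IDs begin with Ag.UNKN. and that therefore carry no chromosome arm in the ID. They number 1938 of the 22761 probe sets in the deposited table and of the 16884 whose IDs begin with Ag. The other 14946 Ag. IDs name the arm 2L, 2R, 3L, 3R or X. An ID gives the arm or UNKN and then a number, and 1 probe set was kept for each such stem, chosen from the ID alone. This left 1865 unplaced and 13041 placed probe sets, with 2999 of the placed ones on 2L, 3848 on 2R, 2198 on 3L, 2754 on 3R and 1242 on X. No source used here defines the ID fields, so that UNKN was read as sequence without a chromosome assignment, and IDs are not paired with genes. The probe sequences and the positions of these probe sets were not analysed here.

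RNA came from 4 parts of the gut of 4th instar larvae, namely the gastric caeca, the anterior and the posterior midgut, and the hindgut with the Malpighian tubules, and from whole larvae of that stage. Each of the 5 groups has 3 arrays, 15 in all. All larvae were of the G3 strain and reared at 28 °C, and the labels give no treatment or mutation. Each section array holds dissected guts of 1000 larvae and each whole-larva array 200 individuals and the labels call the 3 arrays of a group biological repeats. The values are log2 expression values made with RMA, where 1 unit is a 2-fold difference.

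Unplaced sequence is the part of a genome assembly whose contigs could not be joined to a chromosome. In insects it is known to be rich in repeats and in heterochromatin, and it can hold alternative copies of placed genes as well as genes of its own. In mosquito larvae the gastric caeca are pouches at the front of the midgut that secrete and absorb, the anterior midgut holds a strongly alkaline lumen, the posterior midgut secretes digestive enzymes and takes up nutrients, and the hindgut and Malpighian tubules form and modify urine. A section that is higher than whole larvae may hold more cells of a type or more RNA in each cell, and these cannot be told apart in such samples.

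The unplaced probe sets were mostly designed on single predicted coding sequences, as far as their IDs show. CDS stood in the ID of 1760 of the 1865 (94.4%), against 89.4% of placed probe sets, UTR in 4, and neither in 101 (5.42%). By the array maker's naming, a suffix _s_at marks probes shared by several transcripts. It was carried by 341 unplaced probe sets (18.3%), against 719 placed ones (5.51%). The suffix _a_at, which marks probes shared by transcripts of 1 gene, was carried by 55 (2.95%), against 17.4% of placed probe sets. Of the unplaced stems, 70 (3.75%) had several probe sets, at most 3, against 12.2% of placed stems, at most 12.

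Unplaced probe sets were dimmer than placed ones in every group. The median of their group means was 4.70 in the caeca, 4.94 in the anterior midgut, 4.78 in the posterior midgut, 4.56 in the hindgut and 4.67 in whole larvae. Placed probe sets had medians of 5.10 in the caeca, 5.16 in the anterior midgut, 5.10 in the posterior midgut, 5.06 in the hindgut and 5.16 in whole larvae. Within each array the unplaced median lay below the placed one, by 0.39 to 0.41 in the caeca, 0.11 to 0.34 in the anterior midgut, 0.30 to 0.37 in the posterior midgut, 0.46 to 0.54 in the hindgut and 0.38 to 0.54 in whole larvae. The difference, unplaced minus placed, averaged -0.40 ± 0.01 in the caeca, -0.22 ± 0.12 in the anterior midgut, -0.33 ± 0.04 in the posterior midgut, -0.50 ± 0.04 in the hindgut and -0.47 ± 0.08 in whole larvae (SD, n = 3 arrays each). Probes differ in how strongly they respond, so these are differences between distributions of array values and not between amounts of RNA, and no test was made of them.

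The gap was widest at the bright end. The 90th percentile of unplaced group means was 6.17 in the hindgut, against 8.21 for placed probe sets, and 6.17 in the caeca, against 7.90. A group mean above log2 6 was reached by 222 unplaced probe sets in the caeca (11.9%), 295 in the anterior midgut (15.8%), 242 in the posterior midgut (13.0%), 204 in the hindgut (10.9%) and 226 in whole larvae (12.1%). Among placed probe sets these shares were 27.6% in the caeca, 23.4% in the anterior midgut, 26.0% in the posterior midgut, 30.2% in the hindgut and 28.8% in whole larvae. No group mean above 6 was found for 1482 unplaced probe sets (79.5%), against 61.9% of placed ones, and all 5 group means lay above 6 for 134 (7.19%), against 18.0%.

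The share detected depended on the level taken as background. Above the 95th percentile of probe sets with IDs starting with Pf, read as malaria parasite sequence and so without a target in these larvae, lay 85.6% of unplaced probe sets in the caeca, 86.4% in the anterior midgut, 85.2% in the posterior midgut, 82.3% in the hindgut and 88.2% in whole larvae. The shares of placed probe sets lay between 94.0% and 97.0%. That background is low, at 3.96 to 4.10. Above the 95th percentile of 290 probe sets with a purely numeric start of the ID, which lay between 5.29 and 5.83, lay 24.9% of unplaced probe sets against 41.8% of placed ones in the caeca, 20.8% against 27.5% in the anterior midgut, 21.7% against 35.8% in the posterior midgut, 20.1% against 43.5% in the hindgut and 25.8% against 45.6% in whole larvae.

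Dimness and suffix went together. Among the 1407 unplaced probe sets whose IDs end in _CDS_at, a hindgut mean above 6 was found for 54 (3.84%), against 2245 of the 8981 placed ones of that kind. Among the 341 unplaced _s_at probe sets it was found for 31.4%, against 40.6% of placed _s_at probe sets. Among the 117 unplaced ones of neither kind it was found for 36.75%, against 42.1% of placed ones. In the other groups, 6.25% to 12.5% of unplaced _CDS_at probe sets had a mean above 6, against 20.1% to 23.55% of placed ones. Of the 68 unplaced probe sets with a mean over all arrays above 8, 45 (66.2%) were _s_at, against 11.5% of the 1090 placed ones at that level.

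**Figure D1:**
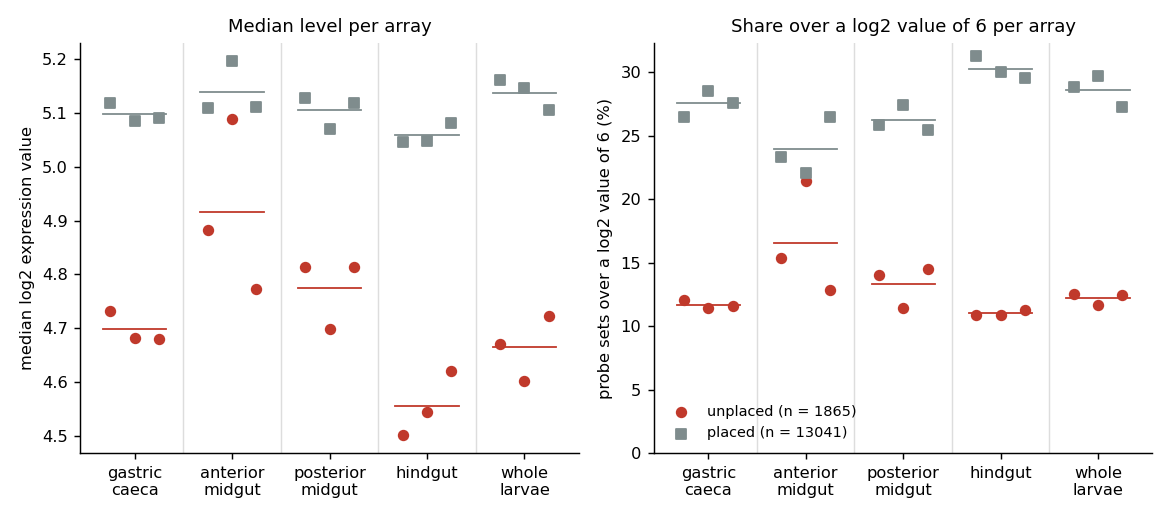
Median log2 expression value (left) and percentage of probe sets above a log2 value of 6 (right) on each of the 15 arrays, arrays 1 to 3 from left to right within a group, for unplaced (circles) and placed (squares) probe sets, with lines at group means. Unplaced probe sets lie lower on every array in both panels, and come closest on anterior midgut array 2, with 21.5% above 6 against 22.0% of placed probe sets.

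One array stood apart from the rest. On anterior midgut array 2 the standard deviation of all Ag. values was 1.40, against 1.59 to 1.85 on the other 14 arrays, so that bright values were lower and dim values higher there. This array was the highest of all 15 for 834 unplaced probe sets (44.7%), against 23.5% of placed ones. Unplaced probe sets with mean levels of 4.5 to 5 lay 0.46 above their own 15-array means on it, and those at 5 to 6 lay 0.45 above. Placed probe sets of the same bands lay 0.24 above and 0.02 below. Counts over all unplaced probe sets in the anterior midgut are therefore given below also without this array. Without it, 253 unplaced probe sets (13.6%) had an anterior midgut mean above 6, against 24.6% of placed ones.

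The dim unplaced probe sets also deviated in other groups. Those with mean levels of 4.5 to 5 lay below their own means in the hindgut, at -0.17 on average, against -0.09 for placed ones, and those at 5 to 6 lay at -0.21, against 0.05 for placed ones. The mean correlation between pairs of unplaced probe sets over the 15 arrays was 0.33 for the 446 at 4.5 to 5 and 0.28 for the 499 at 5 to 6, against 0.11 and 0.01 for placed probe sets. Without anterior midgut array 2 the unplaced values were 0.24 and 0.26. The 25 Pf probe sets at 4.5 to 5, read as without a target here, had a mean correlation of 0.32 (0.30 without that array), a mean deviation of 0.41 on anterior midgut array 2 and of -0.18 in the hindgut. Those 25 are 0.555% of all Pf probe sets. The 4456 at 4.5 or under had a mean correlation of 0.07, against 0.23 for unplaced and 0.15 for placed ones at that level. Their mean deviation was 0.03 on anterior midgut array 2 and 0.002 in the hindgut. Unplaced ones at that level had 0.26 and -0.08, and placed ones 0.23 and -0.08. All pairs share the 15 arrays and their normalization. For brighter unplaced probe sets the mean correlation was 0.02 for the 158 at 6 to 8, against 0.15 for placed ones, and 0.12 for the 68 over 8, against 0.18.

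**Figure D2:**
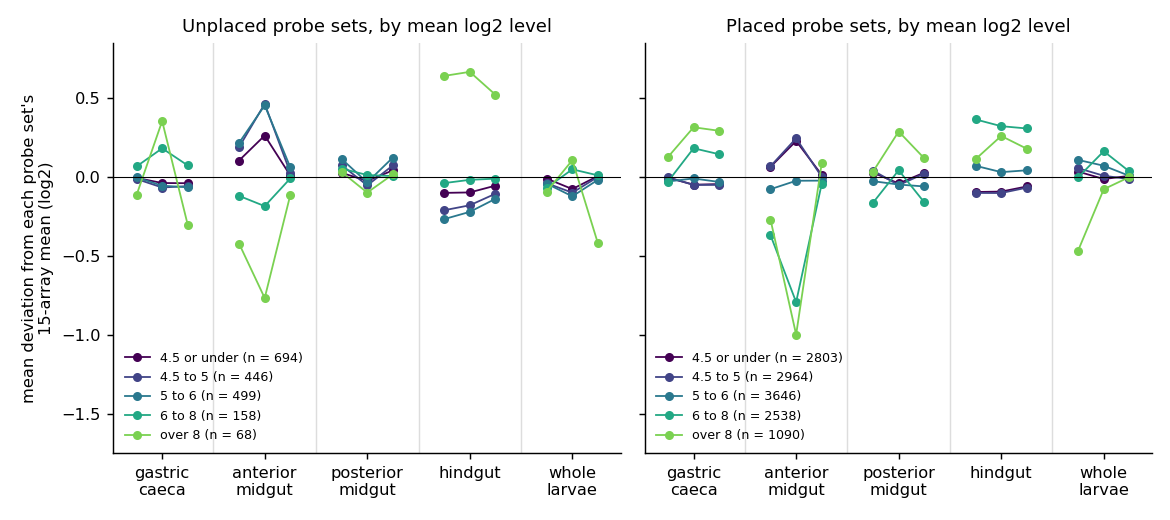
Mean deviation of probe sets from their own 15-array means, in log2 units, on each array, for unplaced (left) and placed (right) probe sets grouped by mean log2 level. Lines only join the arrays of 1 group. Unplaced probe sets between 5 and 6 lie 0.45 above their means on anterior midgut array 2, where placed ones lie at -0.02, and the 68 unplaced probe sets over 8 lie 0.61 above in the hindgut on average, against 0.18 for placed ones. Without 13 of them that differ widely between arrays of 1 group the value is 0.31.

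The anterior midgut had the largest of the 4 section means for 1179 unplaced probe sets (63.2%), against 37.0% of placed ones. Without its array 2 it still did for 983 (52.7%), against 33.8%. A mean above 6 in the anterior midgut alone among sections was found for 77 unplaced probe sets (4.13%), against 1.37% of placed ones, and for 37 (1.98%), against 0.87%, without that array. The hindgut mean was the smallest for 1236 unplaced probe sets (66.3%), against 43.1% of placed ones. These counts are mostly those of the 1639 unplaced probe sets with a mean level of 6 or under. Among the 226 above 6 the hindgut had the largest section mean most often, in 90 (39.8%), against 50.6% of placed ones at that level, and the anterior midgut the smallest in 90 (39.8%), against 54.0%. In these 226 the anterior midgut was still the largest more often than in placed probe sets, in 69 (30.5%), against 11.9%, and the hindgut the smallest in 85 (37.6%), against 19.5%. The median difference from whole larvae was nevertheless small, at 0.23 on the log2 scale in the anterior midgut and 0.16 there without array 2, 0.10 in the posterior midgut, 0.04 in the caeca and -0.10 in the hindgut.

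Each section was then compared with whole larvae, the comparison the series was designed for, by limma's moderated test with Benjamini-Hochberg adjustment over all 16884 Ag. probe sets, and calls required an adjusted p under 0.05 with at least a 2-fold difference. At least 1 section differed from whole larvae for 153 unplaced probe sets (8.20%), of which 103 were higher and 59 lower in some section. The share called among all Ag. probe sets was 19.0% and among placed ones 19.1%, a difference that was described and not tested. Called unplaced probe sets were again rich in _s_at IDs, at 63 of the 153 (41.2%), against 7.07% of called placed probe sets. These shares were near those of all probe sets with a mean above 6, at 42.0% of unplaced and 7.80% of placed ones. The 103 higher and 59 lower were 5.52% and 3.16% of unplaced probe sets, against 11.9% and 9.41% of placed ones. Of the 103 that were higher somewhere, 71 were so in 1 section, 19 in 2, 10 in 3 and 3 in all 4. For the 1557 placed probe sets higher somewhere these counts were 990, 325, 195 and 47. Among the 226 unplaced probe sets with a mean above 6, 80 (35.4%) were called, against 47.1% of the 3628 placed ones at that level.

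**Figure D3:**
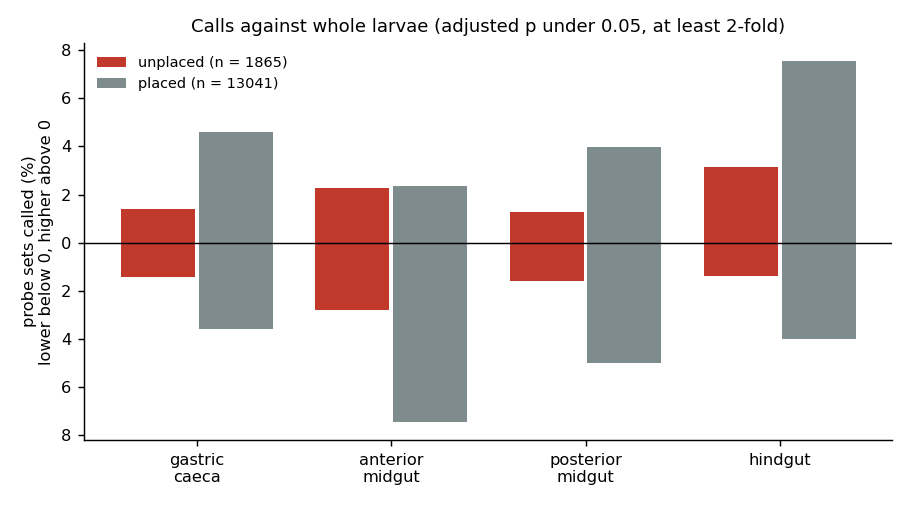
Percentage of unplaced (left bar) and placed (right bar) probe sets called higher (above 0) or lower (below 0) in each gut section than in whole larvae at an adjusted p under 0.05 and at least 2-fold. The unplaced share is the smaller one in each section and direction with all 15 arrays. For higher in the anterior midgut, where it stands at 2.25% against 2.34%, it becomes the larger one without anterior midgut array 3, at 7.99% against 3.37%, and after quantile normalization, at 8.47% against 5.15%. Without whole-larva array 1 that share is also slightly larger, at 1.82% against 1.80%.

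In gastric caeca, 26 unplaced probe sets passed as higher than in whole larvae (1.39%), where 4.24% of all Ag. probe sets were called, and 27 were lower (1.45%), where 3.9% were. Placed probe sets stood at 4.60% and 3.62%. Among the 226 above a mean level of 6, 23 (10.2%) were higher and 10 (4.43%) lower, against 14.5% and 7.19% of placed probe sets at that level. The largest rise was that of Ag.UNKN.1285.0_CDS_s_at, with 8.16, 8.60 and 7.80 in the caeca against 4.66, 4.07 and 4.98 in whole larvae. It was 12.3-fold higher (log2 difference 3.62 ± 0.32 SE, adjusted p = 1.2e-05). The 3 caeca arrays all lay more than 2 log2 units above the whole-larva arrays. Its hindgut values, 7.12 to 7.30, and posterior midgut values, 6.21 to 7.50, lay between, and its anterior midgut values, 4.12 to 4.80, overlapped whole larvae.

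The next rise was that of Ag.UNKN.212.0_CDS_s_at, which had 9.64, 9.50 and 8.33 in the caeca against 5.54, 6.07 and 5.72 in whole larvae, a 10.4-fold difference (log2 3.38 ± 0.39 SE, adjusted p = 8.9e-05). The largest fall was that of Ag.UNKN.46.0_UTR_a_at, at 7.14, 6.75 and 8.35 in the caeca against 11.46, 12.56 and 11.99 in whole larvae, 24.1-fold lower (log2 -4.59 ± 0.52 SE, adjusted p = 7.2e-05). This probe set was lower in all 4 sections than in whole larvae. Its means were 7.41 in the caeca, 5.41 in the anterior midgut, 5.17 in the posterior midgut and 6.48 in the hindgut. All lay far below the whole-larva mean of 12.00, and the probe set had the largest or next largest unplaced fall in every section. Ag.UNKN.1303.0_CDS_at followed, at 6.18, 5.26 and 5.11 in the caeca against 10.12, 7.62 and 8.65 in whole larvae (9.73-fold lower, log2 -3.28 ± 0.55 SE, adjusted p = 0.0014). Its whole-larva arrays spread widely, and the log2 difference ran from -3.87 without whole-larva array 2 to -2.62 without array 1.

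Caeca exceeded each of the other 3 sections for 4 unplaced probe sets (0.214%), where 0.805% of all Ag. probe sets did. The widest gap was that of Ag.UNKN.1449.0_CDS_at, which had 12.94, 12.63 and 12.63 in the caeca, while all 9 arrays of the other sections lay between 4.34 and 5.93. Caeca were 174-fold higher than anterior midgut, the nearest section by the fit (log2 7.44 ± 0.31 SE, adjusted p = 8.7e-09). In whole larvae it had 10.96, 10.19 and 10.36, so that the probe set was both higher in the caeca and lower in each other section than in whole larvae. Ag.UNKN.231.0_CDS_s_at had the same form, with 11.16, 11.38 and 11.23 in the caeca, 4.46 to 5.63 in the other sections, and 8.61, 8.83 and 8.70 in whole larvae. Its difference between caeca and anterior midgut was 68.1-fold (log2 6.09 ± 0.18 SE, adjusted p = 5.2e-10). RMA draws low values towards a floor, so folds against such dim sections are understated.

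In anterior midgut, 42 unplaced probe sets passed as higher than in whole larvae (2.25%), where 2.35% of all Ag. probe sets were called, and 52 were lower (2.79%), where 7.95% were. These counts, and their order against placed probe sets, depended on single arrays. Without array 2 of the anterior midgut 23 (1.23%) were higher and 34 (1.82%) lower, against 3.18% and 5.93% of placed probe sets, and 3.06% of all Ag. probe sets were called higher. Without its array 3 149 (7.99%) were higher and 65 (3.49%) lower, against 3.37% and 9.95% of placed ones, and 3.83% of all Ag. probe sets were called higher. In a fit to only the 2 groups compared, 9 (0.483%) were higher and 18 (0.965%) lower, against 1.02% and 2.90% of placed ones. With arrays quantile normalized again, 158 (8.47%) were higher and 46 (2.47%) lower, against 5.15% and 6.34% of placed ones, and 5.56% of all Ag. probe sets were called higher. The unplaced share called higher was thus below the placed share with all arrays, without array 2 and in the fit to 2 groups, and above it in the other 2 settings. Without whole-larva array 1 it was also slightly above, at 1.82% against 1.80%. Of the 42, 22 had a mean level of 6 or under, 29 were _CDS_at probe sets, and 24 were highest on array 2 among the 3 anterior midgut arrays. Their median rise was 2.26-fold, against 3.09-fold for the 305 placed probe sets called higher, of which 30 were highest on array 2.

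The largest anterior midgut rise was that of Ag.UNKN.1632.0_CDS_s_at, at 11.02, 10.85 and 11.91 in the anterior midgut against 7.70, 8.58 and 9.82 in whole larvae (5.91-fold, log2 2.56 ± 0.44 SE, adjusted p = 0.0015). In the fit to only these 2 groups its adjusted p was 0.068. All 5 probe sets named here for the anterior midgut also passed without its array 2. Ag.UNKN.187.0_CDS_at had 10.14, 9.67 and 10.41 against 6.82, 7.67 and 8.46 in whole larvae (5.37-fold, log2 2.42 ± 0.31 SE, adjusted p = 0.00015). Its means in the other sections, 9.21 in the caeca, 10.53 in the posterior midgut and 10.37 in the hindgut, were above whole larvae as well. The falls were led by Ag.UNKN.46.0_UTR_a_at, at 5.37, 4.496 and 6.37 (96.4-fold lower, log2 -6.59 ± 0.52 SE, adjusted p = 2.4e-06), and Ag.UNKN.1449.0_CDS_at, at a mean of 5.29 ± 0.53 (SD, n = 3), 37.0-fold lower than whole larvae (log2 -5.21 ± 0.31 SE, adjusted p = 2.3e-07).

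Anterior midgut exceeded every other section for 1 unplaced probe set (0.0536%), where 0.32% of all Ag. probe sets did. This was Ag.UNKN.1375.0_CDS_at, at 7.55, 6.29 and 7.59 in the anterior midgut against 5.26 to 5.95 in the caeca, the nearest section (2.78-fold, log2 1.47 ± 0.30 SE, adjusted p = 0.0086). Without anterior midgut array 3, 58 unplaced probe sets (3.11%) counted as highest there, and without posterior midgut array 3, 2 did. Anterior midgut was the lowest of the 4 sections for 9 (0.483%), where 1.31% of all Ag. probe sets were.

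In posterior midgut, 24 unplaced probe sets passed as higher than in whole larvae (1.29%), where 3.72% of all Ag. probe sets were called, and 30 were lower (1.61%), where 5.17% were. Of the 24, 17 were _s_at probe sets. Ag.UNKN.368.0_CDS_at rose most, with 8.16, 9.15 and 9.39 in the posterior midgut against 4.38, 6.69 and 5.26 in whole larvae (11.0-fold, log2 3.45 ± 0.47 SE, adjusted p = 0.00028). In the other sections its 9 arrays lay between 4.03 and 5.13, which made it one of 2 unplaced probe sets (0.107%) highest in the posterior midgut, where 0.154% of all Ag. probe sets were. Over anterior midgut the difference was 20.0-fold (log2 4.32 ± 0.47 SE, adjusted p = 0.0001). The next rise was that of Ag.UNKN.1744.0_CDS_s_at, at 11.15, 11.46 and 11.20 in the posterior midgut against 7.31, 8.25 and 9.03 in whole larvae (8.42-fold, log2 3.07 ± 0.47 SE, adjusted p = 0.0006).

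The second probe set highest in the posterior midgut was Ag.UNKN.1303.0_CDS_at, at 11.77, 11.69 and 11.20 there against 8.75, 9.72 and 9.44 in the hindgut, the nearest section (4.76-fold, log2 2.25 ± 0.55 SE, adjusted p = 0.011). Without hindgut array 1 the adjusted p was 0.053 and the count of such probe sets was 1. Its order over the sections was posterior midgut, hindgut, anterior midgut (8.14, 6.67 and 7.15) and caeca. The largest falls from whole larvae were again those of Ag.UNKN.46.0_UTR_a_at, at 5.55, 5.13 and 4.84 (114-fold lower, log2 -6.83 ± 0.52 SE, adjusted p = 1.8e-06), and Ag.UNKN.1449.0_CDS_at, at 5.93, 4.80 and 4.88 (39.4-fold lower, log2 -5.30 ± 0.31 SE, adjusted p = 2e-07).

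In hindgut with Malpighian tubules, 59 unplaced probe sets passed as higher than in whole larvae (3.16%), where 7.29% of all Ag. probe sets were called, and 26 were lower (1.39%), where 4.05% were. This was the section with the most unplaced rises, as it was for placed probe sets. Of the 59, 37 were called higher in no other section, against 663 of the 987 placed rises in hindgut. Of the 59, 36 were _s_at probe sets, that is 10.6% of the 341 unplaced _s_at probe sets, against 8.90% of the 719 placed ones. The 1407 unplaced _CDS_at probe sets gave 14 rises and 14 falls, 0.995% each, against 6.49% and 3.52% of the placed ones. Above a mean level of 6, 39 of 226 (17.3%) rose, against 19.7% of placed probe sets.

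Hindgut values of the leading probe sets varied little between arrays. Ag.UNKN.2106.0_CDS_s_at had 9.12, 9.10 and 9.29 in the hindgut against 5.52, 5.43 and 5.04 in whole larvae (14.4-fold, log2 3.84 ± 0.34 SE, adjusted p = 5.5e-06). Ag.UNKN.96.0_CDS_a_at had 8.25, 7.82 and 8.31 against 4.21, 4.25 and 4.71 (13.3-fold, log2 3.74 ± 0.21 SE, adjusted p = 1.1e-07). Both were also among the 31 unplaced probe sets (1.66%) highest in the hindgut among sections, where 4.82% of all Ag. probe sets were. Over posterior midgut, the nearest section for both, Ag.UNKN.96.0_CDS_a_at was 7.64-fold higher (log2 2.93 ± 0.21 SE, adjusted p = 7.9e-07) and Ag.UNKN.2106.0_CDS_s_at 7.11-fold (log2 2.83 ± 0.34 SE, adjusted p = 6.9e-05). Without hindgut array 1 the count of 31 was 20. The hindgut was the lowest section for 13 (0.697%), where 0.788% of all Ag. probe sets were.

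The falls in the hindgut were led by Ag.UNKN.1449.0_CDS_at, at 4.34, 4.40 and 4.45 (68.8-fold lower than whole larvae, log2 -6.10 ± 0.31 SE, adjusted p = 6.8e-08), and Ag.UNKN.46.0_UTR_a_at, at 6.49, 5.76 and 7.18 (46.1-fold lower, log2 -5.53 ± 0.52 SE, adjusted p = 9e-06). The hindgut arrays also differed from the rest in a control measure of RNA length, the signal of actin and Gapdh control probe sets at the 3′ end minus the 5′ end, which averaged 0.08 ± 0.26 in the hindgut against 0.93 ± 0.15 in whole larvae on the log2 scale (SD, n = 3 each), and its part in the hindgut results was not tested. At the other extreme, 2 unplaced probe sets had nearly the same high level in all groups. Ag.UNKN.1841.0_CDS_s_at lay between 13.06 and 13.57 on the 15 arrays, and Ag.UNKN.380.0_CDS_s_at between 13.03 and 13.46.

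**Figure D4:**
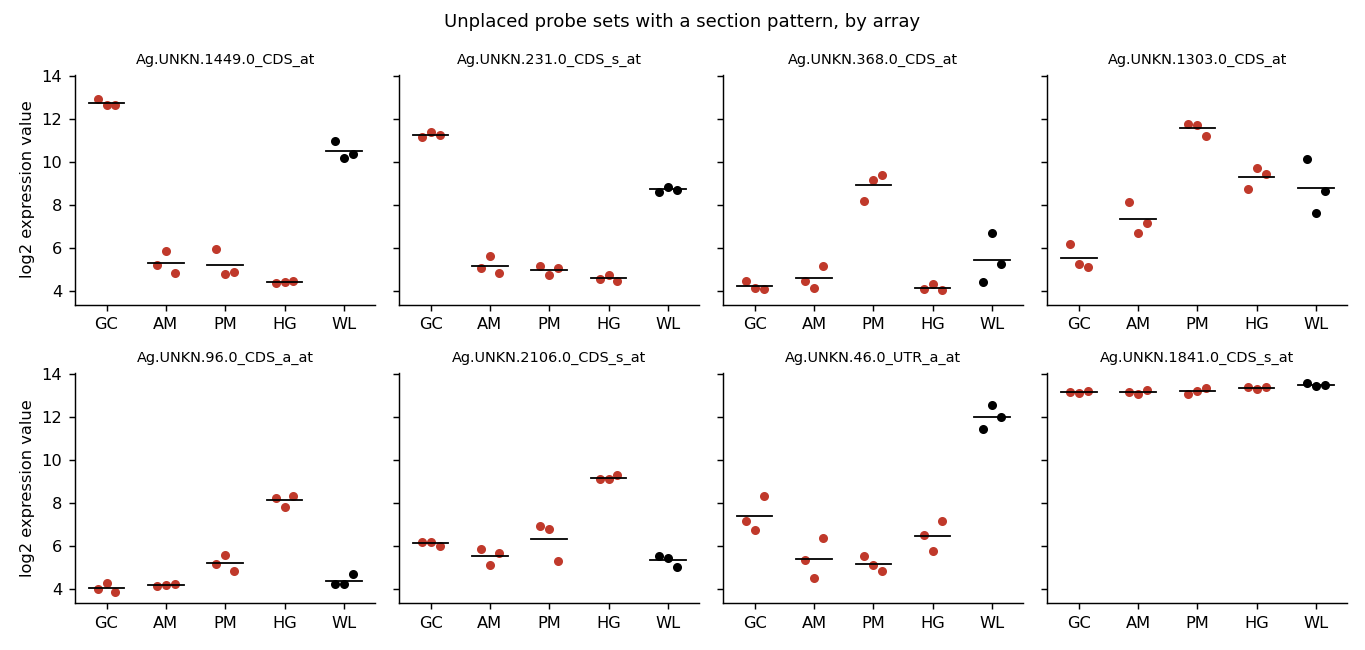
Log2 expression values on each array of 8 unplaced probe sets, with lines at group means, where GC stands for the caeca, AM and PM for the anterior and posterior midgut, HG for hindgut with Malpighian tubules and WL (black) for whole larvae. Ag.UNKN.1449.0_CDS_at has 12.63 to 12.94 in the caeca and at most 5.93 in the other sections. Ag.UNKN.46.0_UTR_a_at has 11.46 to 12.56 in whole larvae and at most 8.35 in the sections, and Ag.UNKN.1841.0_CDS_s_at lies above 13 on every array.

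A block of unplaced probe sets differed widely between arrays of 1 group, and most of its members were also higher in hindgut than in posterior midgut. It was noticed after the values were seen and was picked by a standard deviation over 1.5 among the 3 caeca arrays, which held for 15 of 1865 unplaced probe sets (0.804%) and for 8 of 13041 placed ones (0.0613%). In the anterior midgut a standard deviation over 1.5 was found for 1.23% of unplaced and 0.452% of placed probe sets. The shares were 0.161% and 0.0767% in the posterior midgut, 0.107% and 0.0767% in the hindgut, and 1.18% and 1.19% in whole larvae. All 15 have neither CDS nor UTR in their IDs, 13 are _s_at, and their numbers run between 2201 and 2433. In that span lie 53 unplaced stems, and all 53 have neither CDS nor UTR, so these 2 traits are not separate. None of the 1372 placed probe sets without CDS or UTR in the ID passed the limit in the caeca. The nearest unplaced probe set outside that limit was Ag.UNKN.2434.0_s_at, at a caeca standard deviation of 1.46.

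The 15 fell into 2 opposed patterns. In 11 the caeca value was high on array 2, with medians over the 11 of 6.33, 11.92 and 5.43 on caeca arrays 1 to 3. In anterior midgut the medians were 5.69, 10.81 and 6.49, and in the posterior midgut 7.26, 5.88 and 7.33. The hindgut medians were 11.98, 10.95 and 9.90, with all 11 above 8 on hindgut arrays 1 and 2 and 10 of 11 on array 3. In whole larvae the medians were 10.11, 12.33 and 6.27, and array 1 divided the 11, with 6 above 8 and 5 not, whereas all 11 were above 8 on array 2 and 0 on array 3. In the other 4 the caeca value was low on array 2, with medians of 10.13, 5.84 and 9.32, and likewise low on array 2 of the anterior midgut, at 9.46, 5.66 and 10.05, and of whole larvae, at 9.72, 5.94 and 9.88. The posterior midgut medians of the 4 were 9.81 to 10.26 and the hindgut medians 9.05 to 9.64.

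Single probe sets crossed most of the range of the array. Ag.UNKN.2231.0_s_at had 7.14, 12.96 and 5.41 in the caeca, a 187-fold span within 1 group, 13.78, 13.66 and 13.67 in the hindgut, and 12.54, 12.83 and 6.31 in whole larvae. Ag.UNKN.2210.0_s_at had 10.31, 5.49 and 10.01 in the caeca, 10.06, 10.19 and 10.14 in the hindgut, and 10.05, 5.60 and 10.23 in whole larvae. The means of the 2 patterns correlated at -0.67 over the 15 arrays and at -0.86 without the hindgut arrays, as a description of probe sets chosen for this behaviour. The lowest correlation of 1 of the 11 with the mean of the other 10 was 0.77, and over all 22761 probe sets 6 others, none of them unplaced, exceeded it with the mean of the 11. For the 4 the lowest was 0.87, and 1 other probe set exceeded it, which was Ag.UNKN.2434.0_s_at.

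None of the 15 passed against whole larvae in any section by limma, 0 had an unadjusted p under 0.05 there, and the methods' t-test called 0. The fit holds 1 spread per probe set, so the wide caeca spread they were picked by works against a call in every section. Their 0 calls by limma thus follow in part from the choice. Since the 15 were picked by their spread in caeca, the spread there without them is fixed by the choice. In the other groups, the root mean square of the standard deviations of the 226 unplaced probe sets with a mean above 6 was 0.94 in the anterior midgut and 0.67 without the 15, against 0.69 for placed probe sets. In the posterior midgut it was 0.41 and 0.31, against 0.36, in the hindgut 0.34 and 0.27, against 0.31, and in whole larvae 0.93 and 0.49, against 0.63. No placed probe sets were left out, so the values without the 15 are not set against a like set.

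**Figure D5:**
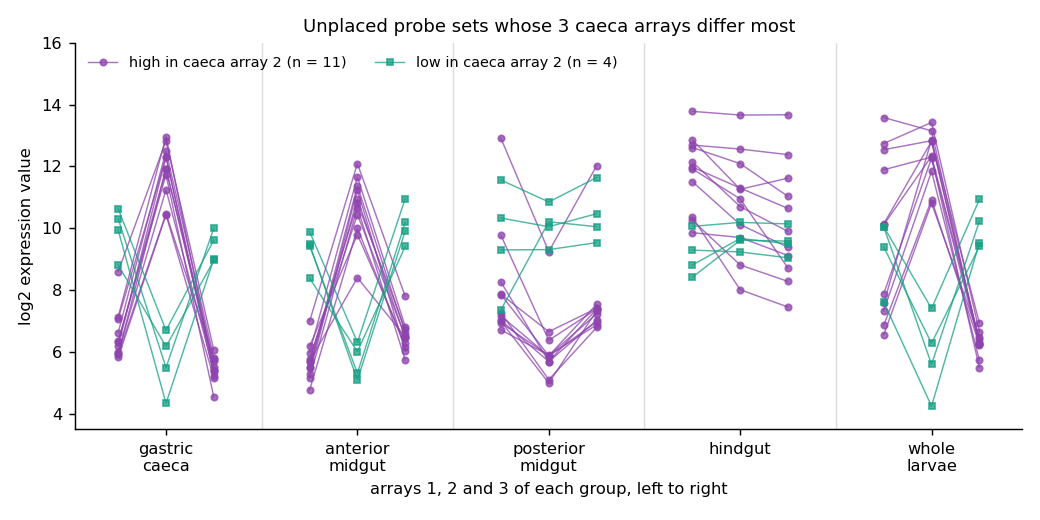
Log2 expression values of the 15 unplaced probe sets with a standard deviation over 1.5 among the 3 caeca arrays, on arrays 1 to 3 of each group from left to right. Lines join the values of 1 probe set within a group. The 11 that are high on caeca array 2 all lie above 8 on array 2 of anterior midgut and whole larvae, where the other 4 lie below 8, and in the hindgut both patterns lie above 8 except for 1 value on array 3.

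Neighbouring numbers in the ID showed some likeness. Over the 1485 pairs of unplaced probe sets with consecutive numbers the mean correlation over the 15 arrays was 0.33, against 0.20 over all unplaced pairs. On the 5 arms it was 0.11 to 0.17 for consecutive pairs, against 0.003 to 0.05 over all pairs of an arm. For the 45 consecutive pairs in which both means exceeded 6 it was 0.32, against 0.02 over all such unplaced pairs. At that level the arms had 0.17 to 0.26 for consecutive pairs, against 0.10 to 0.17 over all such pairs of an arm. Levels also varied with the number. Of the 35 unplaced probe sets numbered above 50 and up to 100, 27 (77.1%) had a mean above 6 and 20 (57.1%) were called, whereas of the 434 numbered 501 to 1000, 23 (5.30%) had such a mean and 21 (4.84%) were called. Of the ranges compared, these had the highest and the lowest share above 6. They also differed in make-up, with 34.3% and 82.95% _CDS_at probe sets. Over all unplaced probe sets 12.1% had such a mean and 8.20% were called, against 19.0% called of all Ag. probe sets. The share above 6 did not change steadily with the number, at 33.3% up to 50 and 17.5% above 2000. Where an unplaced stem held several probe sets, the 76 pairs had a median correlation of 0.50, against 0.59 for 2387 placed pairs, and in 5 pairs (6.58%) both probe sets were called in the same direction in some section, against 18.3% of the placed pairs.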

How the data were processed

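The data are the deposited log2 expression values of 15 Affymetrix arrays, 1 value per probe set and array, made by the authors with RMA per the submitters' processing notes, without version or settings stated there. RMA corrects background, normalizes between arrays and summarises probes, and draws low values towards a floor, which understates the folds of dim probe sets. That the scale is log2 follows from the range of the values, 3.13 to 14.4. An array gives no counting depth, and the number of arrays limits precision.

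Of each ID stem 1 probe set was kept: CDS before UTR before neither, then _at before _a_at before _s_at before _x_at. All 15 arrays were fitted in limma 3.58.1 (R 4.3.3, lmFit and eBayes, 1 mean per group, no covariate), with Benjamini-Hochberg adjustment over 16884 Ag. probe sets per contrast. A call needed an adjusted p under 0.05 and a 2-fold difference. Highest in a section means passing against all 3 other sections. The fit was tested on simulated data. Named probe sets are the 2 largest rises and falls per section whose arrays do not overlap whole larvae, the 2 widest gaps per section, and the 2 with the highest lowest group mean. In RefSeq's genes of assembly idAnoGambNW_F1_1, 0 member IDs were found. Members and lists were chosen with earlier results of these data known.

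Replicate numbers were tested for pairing by correlating deviations from group means. All 3 correlations exceeded 0.1 for caeca with whole larvae, posterior midgut with whole larvae and caeca with posterior midgut, and these were taken as paired. P-values measure the spread between pools. Alternatives were other normalizations, filters, backgrounds, the methods' t-test, pairwise fits, _CDS_at probe sets alone, and leaving out each array.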

Additional observations from a re-analysis of the deposited data

Results flagged for a closer look

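Unplaced probe sets that were higher than whole larvae in one section and lower in another numbered 9 of 1865 (0.483%), against 295 of 13041 placed ones (2.26%). They were picked out because the same contrast with whole larvae went opposite ways in different sections, and in all 18 section pairs concerned the direct contrast between the 2 sections passed as well by limma at an adjusted p under 0.05 and 2-fold. They include Ag.UNKN.1449.0_CDS_at, higher in caeca and lower in the other 3 sections, Ag.UNKN.231.0_CDS_s_at, with the same pattern, and Ag.UNKN.1303.0_CDS_at, with a mean of 11.55 in posterior midgut and of 5.51 in caeca, against 8.80 in whole larvae. The contrasts share the whole-larva arrays. In this fit the difference between 2 such sections is the sum of their opposite differences from whole larvae. That these pairs passed was therefore nearly fixed by the choice and adds no support.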

How the results depend on the processing

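Shares here are percentages of unplaced probe sets. Of 187 recomputed values other than those without 1 array, 141 stayed within 1.5 times the reported count or 1 SD, and 46 did not, and no difference turned its sign. With the methods' t-test and Benjamini-Hochberg adjustment, shares higher and lower were 0.214 and 0.0536 in caeca, 0.0 and 0.0 in anterior midgut, 0.268 and 0.214 for posterior midgut, and 1.72 with 0.322 for hindgut. The unadjusted t-test gave 1.18 and 1.82 in anterior midgut. Fitting only the 2 groups compared gave 0.697 lower in caeca, and 0.483 higher and 0.965 lower in anterior midgut. Quantile normalization again gave 8.47 higher in anterior midgut and 0.268 highest there, and a filter on the number-ID background gave 0.858 lower in caeca. Among _CDS_at probe sets alone, shares higher and lower were 0.498 and 0.853 in caeca and 0.426 and 0.853 in posterior midgut, with 1.14 lower in anterior midgut, 0.995 higher in hindgut, 0.0711 highest in caeca and 0.64 highest in hindgut. The cause of these changes was not tested. Adding the replicate number as a block, which applies to the paired contrasts of caeca and posterior midgut with whole larvae, gave 1.5 and 1.5 in caeca and 1.29 and 1.98 in posterior midgut, and moved no count by over 1.5 times. In the unpaired contrasts it gave 2.14 and 2.9 in anterior midgut and 3.16 and 1.45 in hindgut.

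For detection, the 99th percentile of Pf gave 55.3 in anterior and 55.0 in posterior midgut. The number-ID background gave 24.9, 20.8, 21.7, 20.1 and 25.8 in caeca, anterior midgut, posterior midgut, hindgut and whole larvae, a log2 level of 6 gave 11.9, 15.8, 13.0, 10.9 and 12.1, and the same level after quantile normalization 12.0, 21.0, 14.3, 9.97 and 11.6. The median difference from placed probe sets was -0.426 (brightest probe set per stem), -0.434 (all probe sets) and -0.355 (_CDS_at) in caeca, and -0.559 (all) and -0.431 (_CDS_at) in hindgut.

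Leaving out each array, shares higher ran from 1.02 to 1.5 in caeca, 1.23 to 7.99 in anterior midgut, 1.02 to 1.61 in posterior midgut and 2.79 to 3.32 in hindgut. Shares lower ran from 1.02 to 1.88, 1.82 to 3.49, 1.39 to 2.31 and 1.07 to 1.93 in these sections. Shares highest ran from 0.214 to 0.268, 0.0536 to 3.11, 0.0536 to 0.107 and 1.07 to 1.72. Of 210 such values 7 moved by over 1.5 times, on leaving out anterior midgut array 2 or 3, posterior midgut array 3 or hindgut array 1. Leaving out the 15 probe sets that differed between caeca arrays, an alternative chosen after seeing the data, could change no count, since 0 of them were called. Precision is limited by 3 arrays a group and by the 87.9% of unplaced probe sets with a mean of 6 or under.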
